A study of Mus musculus with 3 samples.

Results

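The transcripts described here are 10 protein-coding mRNAs made from the mitochondrial chromosome of the mouse: ND1, ND2, ND4, ND5 and ND6 of complex I, CYTB of complex III, COX1, COX2 and COX3 of complex IV, and ATP6 of the ATP synthase. They were taken by symbol from a deposited table of 46095 genes, which lists 37 genes on that chromosome without the usual mt- prefix. The cells were OCCM-30, an immortalised line of mouse cementoblasts, the cells that lay down the mineralised layer of the tooth root, with a wild-type genotype in every library. Total RNA was sequenced from cells held in cementogenic medium for 7 days (day 7) or 14 days (day 14) and from cells without cementogenic differentiation (day 0), with 1 library for each time point. No difference therefore has a replicate check, no p-value is given, and induction cannot be told apart from time in culture. In bulk RNA, fewer mitochondria per cell and less RNA per mitochondrion cannot be told apart either.

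The mitochondrial chromosome carries some of the core subunits of the respiratory chain and is copied and transcribed inside the organelle, apart from the nuclear genome. Each strand is transcribed as a long precursor, in which transfer RNAs stand between most of the mRNAs and ribosomal RNAs and mark where it is cut. Most mRNAs come from the heavy-strand precursor, while ND6 is the only mRNA of the light-strand precursor; after cutting, each mRNA has its own stability, for which the LRPPRC and SLIRP proteins are known in mammals. Cementoblasts, like osteoblasts, make large amounts of matrix protein, and respiration is among the processes that change when such cells mature.

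Library totals were 13224690, 14034518 and 14439666 counts on day 0, 7 and 14. Levels are given as CPM, counts per 1000000 after scaling with TMM factors of 1.08, 0.966 and 0.962, and per length as the authors' FPKM. A gene is said to have risen or fallen where it had at least 1 CPM in the higher library, a ratio of scaled counts of at least 2 and a 95% Clopper-Pearson interval that excluded no change. These intervals hold counting error alone, because each time point has 1 library. No molecular identifiers are stated, so reads cannot be taken as independent molecules and the intervals may be too narrow. Markers of the labelled cell type were present: of 10 cementoblast and osteoblast markers, 6 rose by day 7 and 7 by day 14, with Sp7, an osteoblast transcription factor, at 9.70, 223.6 and 247.7 CPM on day 0, 7 and 14. Of all measured genes, 12.2% rose by day 7 and 9.5% by day 14. Summed markers of macrophages and osteoclasts, endothelium, epithelium, skeletal muscle and adipocytes each stayed at or below 12.98 CPM in every library, and Adgre1, Cdh5, Kdr, Epcam, Myod1 and Adipoq had a count of 0 throughout. Within these low sums, the osteoclast marker Acp5 rose by day 7 and by day 14 and fell between day 7 and day 14. The epithelial marker Krt8 fell by day 7 and by day 14, and the endothelial marker Pecam1 fell between day 7 and day 14.

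All 37 mitochondrial genes of the table lie where the GENCODE annotation of the same build (mm10, GRCm38) puts them. ND1, the first mRNA of the heavy-strand precursor, lies at chrM:2751-3707, ND2 at chrM:3914-4951, COX1 at chrM:5328-6872, COX2 at chrM:7013-7696, ATP6 at chrM:7927-8607, COX3 at chrM:8607-9390, ND4 at chrM:10167-11544, ND5 at chrM:11742-13565 and CYTB at chrM:14145-15288. ND6, at chrM:13552-14070, runs the other way and lies between ND5 and CYTB, within the stretch that the heavy-strand precursor also crosses. The 3′ ends of ND5 and ND6 overlap by 14 bases, shown here in capitals because both genes hold this stretch (GRCm38; ND5 at chrM:13522-13565 on the plus strand, ND6 at chrM:13552-13595 on the minus strand, each read 5′ to 3′).
ND5: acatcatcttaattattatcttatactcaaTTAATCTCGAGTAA
ND6: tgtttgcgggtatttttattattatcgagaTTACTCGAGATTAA
The capitals are each other's reverse complement. The base make-up of ND6 is also opposite to that of its partners: G made up 28.1% and C 5.97% of its bases, while G made up 7.996% to 16.1% and C 23.8% to 27.8% in the other 9 mRNAs. The sources used here do not give the strand setting of the authors' counting, so ND6 reads cannot be told apart from reads of the heavy-strand precursor over the same stretch.

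Mitochondrial mRNAs also have copies in the nucleus, pieces of mitochondrial DNA that were inserted into chromosomes. Exact runs of at least 50 bases shared with an annotated nuclear transcript covered 100% of COX2, 99.9% of COX3, 99.6% of ATP6, 74.9% of COX1, 63.6% of ND4, 24.3% of ND5 and 17.2% of ND2. No such run was found for ND1, ND6 or CYTB. With runs of at least 100 bases, the shares were 48.1% for COX1, 63.6% for ND4, 12.4% for ND2 and 0% for ND5. Those of COX2, COX3 and ATP6 stayed at 99.6% or more. The copies of COX2, COX3, ATP6 and ND4 stand side by side on chromosome 1 as the pseudogenes Gm28661 (chr1:24614885-24615565), Gm28437 (chr1:24613189-24613971), Gm10925 (chr1:24613974-24614651) and Gm28439 (chr1:24611535-24612410). Gm28661 equals COX2 in 681 of 681 aligned bases, and Gm28439 equals ND4 in 876 of 876. The piece of COX1 in the neighbouring pseudogene Gm29216 equals COX1 in 482 of 483 bases, with the single difference A1066T, counted from the first base of COX1. The stretches below show why a read cannot always be placed: the COX1 pair differs at its capital letter, and the COX2 pair, its first 60 bases, does not differ at all (GRCm38; chrM:6390-6433 and chrM:7013-7072 on the plus strand, chr1:24616145-24616188 and chr1:24615506-24615565 on the minus strand).
COX1 on the mitochondrial chromosome: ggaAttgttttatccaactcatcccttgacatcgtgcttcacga
Gm29216 on chromosome 1: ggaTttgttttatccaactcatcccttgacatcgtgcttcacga
COX2 on the mitochondrial chromosome: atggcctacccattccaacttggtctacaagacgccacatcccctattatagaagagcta
Gm28661 on chromosome 1: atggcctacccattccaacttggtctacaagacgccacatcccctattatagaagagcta

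COX2, COX3 and ATP6 together held 423, 302 and 335 counts on day 0, 7 and 14, while the other 7 mRNAs each held at least 5962 counts in every library. COX2, which carries the copper centre that takes electrons from cytochrome c, had 180, 145 and 147 counts on day 0, 7 and 14. COX3, a core subunit next to COX1, had 171, 87 and 89 counts, and ATP6, part of the proton channel of the ATP synthase, had 72, 70 and 99 counts. ND3 and ND4L, complex I mRNAs of the same chromosome that are no members of the group, had copied shares of 98.3% and 98.99% and at most 19 counts. The sources used here do not say how the counting treated reads with several matches, and the part of that treatment in these low counts was not tested. COX1 was the most abundant mRNA, with 74.9% of its bases in runs of at least 50 bases and 48.1% in runs of at least 100. ATP8, which lies between COX2 and ATP6 at chrM:7766-7969, had 1, 5 and 5 counts. No run of 50 bases was found for ATP8 in annotated transcripts. The stretch of chromosome 1 between the copies of COX2 and ATP6 was not searched, so whether it holds a copy of ATP8 is not known. The table also lists the nuclear copy of ATP6 as a gene of its own, LOC100503946, with 109, 103 and 140 counts on day 0, 7 and 14, and that of ND4L as Gm10222, with 92, 74 and 87 counts, more than ATP6 and ND4L themselves had. The values of COX2, COX3 and ATP6 below are therefore uncertain, and counts of called mRNAs are also given without them. ND4 and COX1 are copied over a large part of their length, so their levels per length are uncertain as well.

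**Figure D1:**
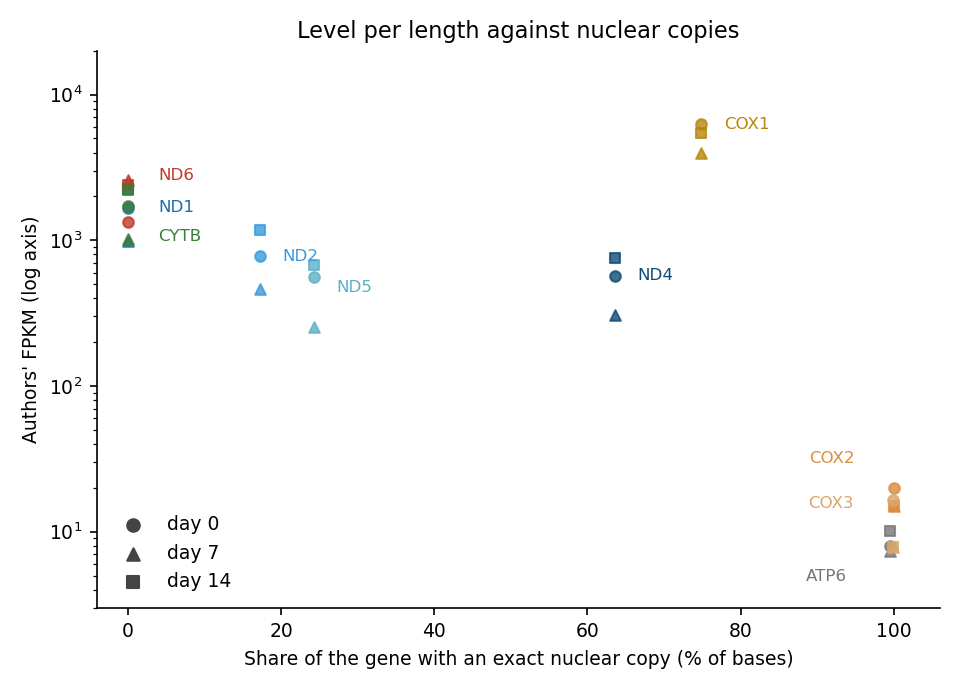
The share of each mRNA's bases with an exact nuclear copy (x axis, percent) is plotted against the authors' FPKM (y axis, log scale), with circles, triangles and squares for day 0, 7 and 14. COX2, COX3 and ATP6, at 99.6% or more, lie at or below 19.9 FPKM in every library, while ND4 with 63.6% and COX1 with 74.9% lie at 308.3 FPKM or above.

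Per length, COX1, the catalytic subunit of cytochrome c oxidase, stood above every other mRNA in each library, at 6268, 3990.4 and 5445 FPKM on day 0, 7 and 14. CYTB, the complex III subunit that passes electrons from ubiquinol, stood at 1717, 1028 and 2216 FPKM. ND1, next to the ubiquinone site of complex I, stood at 1679, 989.8 and 2251 FPKM. The counting intervals of CYTB and ND1 overlapped on day 0 and day 14. ND6, a membrane subunit of complex I, stood below CYTB and ND1 on day 0 at 1330.5 FPKM, but above both on day 7 at 2592 FPKM and on day 14 at 2406 FPKM. The pumping subunits ND2, ND4 and ND5 came next in each library, at 779.1, 568.8 and 556.8 FPKM on day 0, 466.0, 308.3 and 255.4 FPKM on day 7, and 1179, 760.0 and 681.1 FPKM on day 14. ND4 and ND5 overlapped in their counting intervals on day 0. FPKM divides by the whole gene length. Runs shared with annotated nuclear transcripts cover 74.9% of COX1, 63.6% of ND4, 24.3% of ND5 and 17.2% of ND2. How reads from such runs were counted is not stated, so the order of these mRNAs per length is uncertain. COX2, COX3 and ATP6 stood lowest, between 7.32 and 19.9 FPKM, and COX2 and COX3 overlapped on day 0, as did COX3 and ATP6 on day 7 and on day 14.

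**Figure D2:**
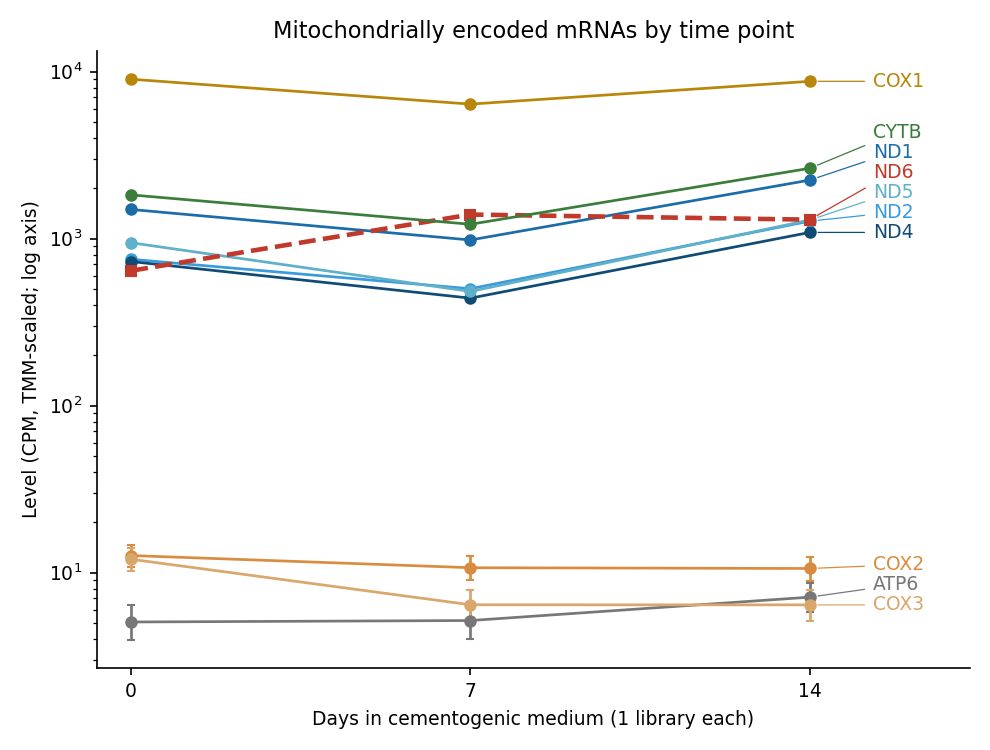
Level of each mRNA in CPM (y axis, log scale) by days in cementogenic medium (x axis, 1 library each); bars are 95% counting intervals, and the dashed line with squares is ND6. The lines of the other abundant mRNAs dip on day 7 and ND6 peaks there at 1393 CPM.

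By day 7, ND6 rose and the other abundant mRNAs were lower than on day 0 without passing the rule. ND6 had 1393 CPM on day 7, against 642 CPM on day 0, a ratio of 2.17 (2.12 to 2.22). It was the only one of the 10 mRNAs to pass the rule, where 12.2% of 14694 measured genes passed it upward and 11.4% downward. None of the 10 mRNAs fell under the rule; their median log2 ratio was -0.59, against a median of 0.00 over all measured genes. Without COX2, COX3 and ATP6 the count was also 1. With totals in place of TMM factors the ND6 ratio was 1.95 and missed the rule, while ND5 and COX3 fell, at ratios of 0.459 and 0.479. That scaling moved the median of all measured genes by about -0.15 on the log2 scale and split their calls into 1476 higher and 2121 lower, against 1799 higher and 1679 lower with TMM factors.

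The 5 mRNAs of complexes I and III on the heavy-strand side had ratios between 0.511 and 0.667. ND5 had 482 CPM on day 7, against 944 CPM on day 0, a ratio of 0.511 (0.496 to 0.526) that was just short of the rule. ND4 had 439.75 CPM on day 7, against 728 CPM on day 0, a ratio of 0.604 (0.585 to 0.623). ND1, ND2 and CYTB had ratios of 0.657, 0.666 and 0.667, whose counting intervals overlapped. Summed, these 5 mRNAs had a ratio of 0.630 (0.623 to 0.638). COX1 had 6382 CPM on day 7, against 9001 CPM on day 0, a ratio of 0.709 (0.703 to 0.715). Of the low-count mRNAs, COX3 had a ratio of 0.534 (0.408 to 0.695), while the intervals of COX2 at 0.845 (0.675 to 1.06) and ATP6 at 1.020 (0.724 to 1.44) included no change, and the sign of ATP6 turned with total counts. The 10 mRNAs made up 1.10% of all counts on day 7 (1.10% to 1.11%), against 1.66% on day 0 (1.65% to 1.67%).

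On day 14, ND6 was again higher than on day 0, and the 5 heavy-strand mRNAs of complexes I and III now stood above day 0, short of the rule. ND6 had 1298 CPM on day 14, against 642 CPM on day 0, a ratio of 2.02 (1.97 to 2.07) whose interval includes the threshold of 2. It was again the only one of the 10 mRNAs past the rule, where 9.5% of 14593 measured genes passed it upward and 8.14% downward; the count was the same without COX2, COX3 and ATP6. With total counts the ND6 ratio was 1.81 and missed the rule, COX3 fell at 0.477, and the calls over all genes split into 1139 higher and 1541 lower, against 1387 higher and 1188 lower with TMM factors. The median log2 ratio of the 10 mRNAs was 0.49, against -0.01 over all measured genes.

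ND2 had the highest ratio of the heavy-strand mRNAs, with 1272 CPM on day 14, against 752 CPM on day 0, a ratio of 1.69 (1.65 to 1.73). ND1, ND4, CYTB and ND5 followed with ratios of 1.499, 1.49, 1.44 and 1.37. COX1 stood near its day 0 level, with 8743 CPM on day 14, against 9001 CPM on day 0, a ratio of 0.971 (0.964 to 0.979). COX3 had 6.41 CPM on day 14, against 12.02 CPM on day 0, a ratio of 0.533 (0.408 to 0.693). COX2, at 0.836 (0.668 to 1.046), had an interval that included no change, and ATP6 stood at 1.41 (1.03 to 1.93). All 3 mRNAs of complex IV had ratios under 1, that of COX2 within counting error, and the shared nuclear copies leave COX2 and COX3 uncertain. The 10 mRNAs made up 1.79% of all counts on day 14 (1.78% to 1.796%), against 1.66% on day 0.

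**Figure D3:**
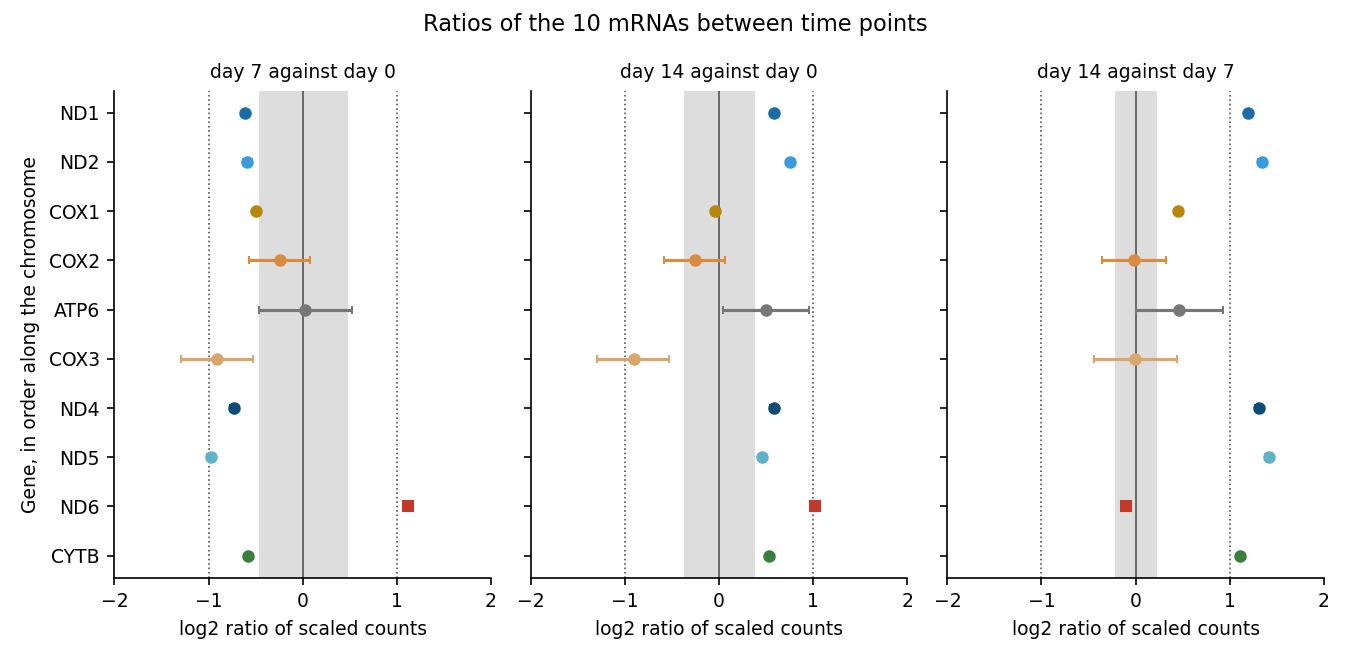
Log2 ratio of scaled counts (x axis) for each mRNA, ordered along the mitochondrial chromosome (y axis), in the 3 comparisons; bars are 95% counting intervals, dotted lines mark 2-fold and the grey band spans the lower to the upper quartile of all measured genes. ND6, the red square, stands apart from its neighbours ND5 and CYTB in the comparisons with day 7.

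Between day 7 and day 14, 5 of the 10 mRNAs rose, and they were the heavy-strand mRNAs of complexes I and III. ND5 had 1291 CPM on day 14, against 482 CPM on day 7, a ratio of 2.68 (2.60 to 2.75). ND2 had 1272 CPM on day 14, against 501 CPM on day 7, a ratio of 2.54 (2.47 to 2.61). ND4 followed at 2.48 (2.40 to 2.55), ND1 at 2.28 (2.24 to 2.33) and CYTB at 2.16 (2.12 to 2.204). Over all 14404 measured genes, 2.78% passed the rule upward and 2.3% downward. None of the 10 mRNAs fell, and the count stayed at 5 without COX2, COX3 and ATP6 and with each of the other scalings. ND1 and CYTB had no copied run of 50 bases or more in annotated nuclear transcripts. ND2, ND4 and ND5 had one over part of their length.

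The other 5 mRNAs did not pass the rule between day 7 and day 14. COX1 had 8743 CPM on day 14, against 6382 CPM on day 7, a ratio of 1.37 (1.36 to 1.38). ND6 had 1298 CPM on day 14, against 1393 CPM on day 7, a ratio of 0.932 (0.913 to 0.951). COX2 at 0.989 (0.781 to 1.25) and COX3 at 0.998 (0.734 to 1.36) had intervals that included no change, and ATP6 stood at 1.38 (1.01 to 1.90). The median log2 ratio of the 10 mRNAs was 0.78, against 0.00 over all measured genes. Since this comparison and the first share the day 7 library, the dip and the later rise are not separate pieces of evidence.

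Ratios within a library do not depend on the scaling. For each read of the other 9 mRNAs there were 0.0434, 0.139 and 0.0751 reads of ND6 on day 0, 7 and 14. The day 7 library stood apart, with a ratio 3.20 times that of day 0, and day 14 lay between, at 1.73 times day 0. Against ND5, whose end it overlaps, ND6 stood at 0.680, 2.89 and 1.01 on day 0, 7 and 14. Against CYTB on its other side, ND6 stood at 0.351, 1.14 and 0.493. ND6 made up 4.16%, 12.2% and 6.98% of the reads of the 10 mRNAs on day 0, 7 and 14.

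COX1 was a smaller part of the heavy-strand mRNAs on day 14 than on day 7 or day 0. For each read of ND1, ND2, ND4, ND5 and CYTB together there were 1.57, 1.76 and 1.03 reads of COX1 on day 0, 7 and 14. COX1 made up 58.4%, 55.9% and 47.0% of the reads of the 10 mRNAs. By contrast, ND1, which lies nearest the start of the heavy-strand precursor, and CYTB, which lies nearest its end, kept a narrow range, with 0.818, 0.805 and 0.850 reads of ND1 for each read of CYTB. ND2 over CYTB stood at 0.412, 0.411 and 0.483, and ND4 over CYTB at 0.399, 0.361 and 0.413. ND5 over CYTB was lowest on day 7, at 0.517, 0.396 and 0.490 on day 0, 7 and 14. Whether the nuclear copies of COX1 bear on its share was not tested.

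**Figure D4:**
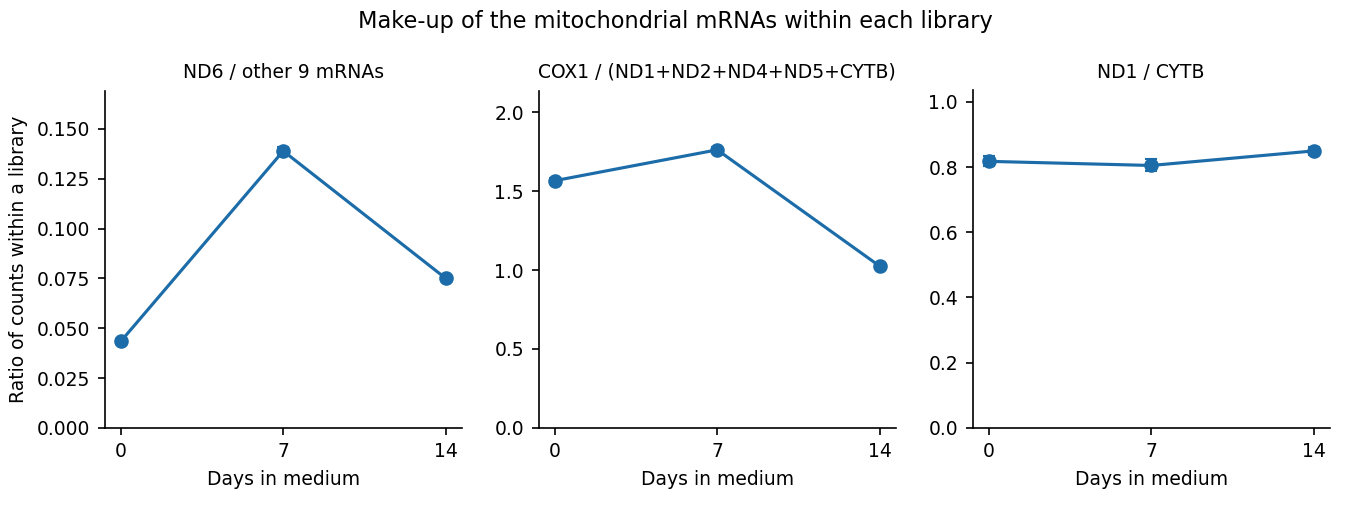
Ratios of read counts within each library (y axes, from 0) by days in medium (x axes), with 95% counting intervals: ND6 over the other 9 mRNAs, COX1 over 5 heavy-strand mRNAs, and ND1 over CYTB. ND6 peaks on day 7 at 0.139, COX1 is lowest on day 14 at 1.03, and ND1 over CYTB stays between 0.805 and 0.850.

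The remaining genes of the mitochondrial chromosome were scarce in these libraries. The large ribosomal RNA Rnr2, cut from the same heavy-strand precursor, had 86.4, 83.2 and 135.7 CPM on day 0, 7 and 14, a level per length of 58.8, 50.8 and 82.5 FPKM that lay far below ND1 beside it. The small ribosomal RNA Rnr1 had 23, 36 and 57 counts. It rose by day 14, with a ratio of 2.54 (1.54 to 4.32), and Rnr2 had a ratio of 1.57 (1.46 to 1.69). Of 22 transfer RNA genes, 13 had no count in any library, 6 had at most 7 counts in a library, and TrnP, TrnQ and TrnW had more. TrnP, encoded on the same strand as ND6, had 101 counts on day 7, against 50 counts on day 0, a ratio of 2.12 (1.496 to 3.04). TrnW, encoded on the heavy-strand side, rose as well, with 42 counts on day 7, against 22 counts on day 0, a ratio of 2.003 (1.169 to 3.52). TrnQ, again on the ND6 side, had 49 counts on day 7, against 38 counts on day 0. At these counts the transfer RNAs gave no common order by strand. ND4L fell by day 7 on 4 counts, against 19 counts on day 0, and it rose between day 7 and day 14, with 14 counts on day 14. ND3 had 18 counts on day 14, against 3 counts on day 7, a ratio of 5.85 (1.71 to 31.0).

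Nuclear genes that make, cut and stabilise these transcripts are set beside the shares over all measured genes, 12.2% higher and 11.4% lower on day 7 and 9.5% higher and 8.14% lower on day 14 against day 0. Of 23 measured genes of mitochondrial transcription and DNA maintenance, 1 rose and 1 fell by day 7 and none passed the rule in the other comparisons, with median log2 ratios of -0.06, -0.05 and -0.05 for day 7 against day 0, day 14 against day 0 and day 14 against day 7. Polrmt, the mitochondrial RNA polymerase, had 28.1, 21.9 and 20.6 CPM on day 0, 7 and 14. Tfam, which packages the chromosome and starts transcription, had 41.8, 36.1 and 35.1 CPM. Tfb2m, which opens the promoter, had 12.6, 11.8 and 12.1 CPM, and the elongation factor Tefm had 8.22, 6.27 and 6.05 CPM. The DNA polymerase Polg had 86.2, 102.7 and 93.9 CPM, its helicase partner Twnk, listed as Peo1, 25.5, 31.6 and 24.8 CPM, and the ligase Lig3 103.3, 104.3 and 112.9 CPM. Primpol, a primase-polymerase of nucleus and mitochondria, rose to 75.5 CPM on day 7, against 25.7 CPM on day 0. Rrm2b, a ribonucleotide reductase subunit, fell to 19.2 CPM on day 7, against 41.1 CPM on day 0.

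Of 29 genes of mitochondrial RNA processing, stability and decay, 1 fell by day 7 and none rose, with a median log2 ratio of -0.38; 23 of the 29 stood below 0. Lrpprc, which holds heavy-strand mRNAs stable, had 81.4 CPM on day 7, against 143.3 CPM on day 0, a log2 ratio of -0.81, and 106.5 CPM on day 14. Its partner Slirp had 20.9 CPM on day 7, against 31.3 CPM on day 0, a log2 ratio of -0.57, and 24.1 CPM on day 14. Both were short of the rule and lowest on day 7, as were COX1, CYTB, ND1, ND2, ND4 and ND5 but not COX2, COX3 and ATP6, and whether they bear on those was not tested. The RNA-binding protein Grsf1 had 105.8, 118.1 and 96.5 CPM on day 0, 7 and 14. The gene that fell was 1110008L16Rik, with 5.46 CPM on day 7, against 12.8 CPM on day 0. For day 14 against day 0 and day 14 against day 7, none of the 29 passed the rule, with medians of -0.18 and 0.12. Among 17 translation factors and mRNA activators, Noa1 fell by day 7, with 10.5 CPM on day 7, against 24.3 CPM on day 0, and Tsfm, an elongation factor, fell by day 14, with 6.84 CPM on day 14, against 15.18 CPM on day 0; the medians were -0.26, -0.28 and -0.06. The abundant Gfm1 and Letm1 of that list had log2 ratios of -0.12 and -0.58 for day 7 against day 0.

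Nuclear subunits of the same complexes had list medians above 0 for day 7 against day 0, where the mitochondrial mRNAs had a median below 0. With total counts the medians were 0.02, -0.08 and 0.20 for complexes I, III and IV and -0.03 for ATP synthase. The mitochondrial mRNAs then had a median of -0.74 and all measured genes one of -0.15. The difference between the lists was not tested. Over all measured genes, 12.2% rose and 11.4% fell by day 7, and 9.5% rose and 8.14% fell by day 14. The counts of calls below lie near or under these shares. Of 35 measured nuclear subunits of complex I, none passed the rule in any comparison, with median log2 ratios of 0.17, -0.06 and -0.16 for day 7 against day 0, day 14 against day 0 and day 14 against day 7, where the 5 mitochondrial complex I mRNAs had medians of -0.61, 0.58 and 1.31. Ndufv2 had 101.9, 115.5 and 132.7 CPM and Ndufs1 115.0, 109.4 and 113.3 CPM on day 0, 7 and 14. Of 9 nuclear subunits of complex III, 1 fell by day 7 and by day 14. It was Uqcrc1, with 11 counts on day 7 and 10 counts on day 14, against 104 counts on day 0. Uqcrc1 is listed on an unplaced scaffold, so its reads may be split. Uqcrc2 had 100.8, 124.7 and 103.1 CPM and Uqcr10 76.2, 91.8 and 72.2 CPM. The medians of the complex III list were 0.07, -0.08 and -0.21. Of 13 measured nuclear subunits of complex IV, Cox7a1, a subunit form known from muscle, rose to 77 counts on day 7 and 67 counts on day 14, against 10 counts on day 0, and Ndufa4, a subunit once assigned to complex I, fell, with 27.4 CPM on day 7 and 29.4 CPM on day 14, against 67.4 CPM on day 0. The median of that list was 0.35, 0.03 and -0.23, with Cox4i1 at 208.7, 266.7 and 218.8 CPM and Cox6c at 179.2, 229.0 and 235.5 CPM. None of 16 nuclear ATP synthase subunits passed the rule, and their medians were 0.13, 0.05 and -0.09; Atp5b had 681.5, 698.2 and 626.3 CPM and Atp5a1 466.6, 456.5 and 436.0 CPM. Of 31 measured assembly factors of complexes I and IV, none passed it either, with medians of -0.07, -0.11 and -0.05, and with Coa5 at 93.4, 80.8 and 82.0 CPM and Acad9 at 50.7, 43.0 and 39.9 CPM.

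Among regulators of mitochondrial number, Ppargc1a, the coactivator known for driving mitochondrial biogenesis, rose to 184.0 CPM on day 7 and 191.5 CPM on day 14, against 19.8 CPM on day 0, ratios of 9.28 (8.21 to 10.5) and 9.66 (8.54 to 11.0). Prkaa2, a catalytic subunit of the energy sensor AMPK, rose to 97.2 CPM on day 7 and 83.5 CPM on day 14, against 24.9 CPM on day 0. Of the factors in this list, Nrf1, Esrra and Gabpb2 did not pass the rule. Nrf1 had 64.5, 86.7 and 86.2 CPM, Esrra 10.2, 12.6 and 11.0 CPM and Gabpb2 222.6, 155.1 and 220.5 CPM on day 0, 7 and 14. Prkaa1 had 147.9, 181.2 and 209.4 CPM. In this list of 14 measured genes, 2 rose and 2 fell by day 7, Esrrb and Sirt1 being the ones that fell, and 2 rose and 1 fell by day 14, counts that lie near the shares over all measured genes (12.2% higher and 11.4% lower on day 7, 9.5% higher and 8.14% lower on day 14). Esrrb, with 35, 4 and 15 counts on day 0, 7 and 14, rose between day 7 and day 14. The medians were 0.28, 0.13 and 0.03. Ppargc1a stood at similar levels on day 7 and day 14. The ratio of the 5 heavy-strand mRNAs of complexes I and III to day 0 was 0.630 on day 7 and 1.48 on day 14. Whether Ppargc1a bears on these mRNAs was not tested.

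Of 15 measured genes of mitophagy, fission and fusion, Bnip3, a receptor for the removal of mitochondria that hypoxia is known to induce, rose to 419.4 CPM on day 7 and 293.0 CPM on day 14, against 84.1 CPM on day 0. The other 14 did not pass the rule in either comparison, and none of the 15 passed it between day 7 and day 14; Dnm1l, which cuts mitochondria, had 227.2, 218.6 and 249.9 CPM on day 0, 7 and 14, and the medians of the list were 0.13, 0.09 and -0.09. Of 13 genes of the mitochondrial unfolded protein response and proteases, Atf5, a transcription factor of that response, fell to 34.4 CPM on day 7 and 69.5 CPM on day 14, against 150.1 CPM on day 0, and rose between day 7 and day 14. Htra2, a protease, fell to 19.5 CPM on day 7, against 39.99 CPM on day 0. The chaperones Hspd1 and Hspa9 had log2 ratios of -0.97 and -0.84 for day 7 against day 0, short of the rule, and the medians of the list were -0.29, -0.26 and 0.00. Of all measured genes, 12.2% rose and 11.4% fell by day 7, and 9.5% rose and 8.14% fell by day 14. Between day 7 and day 14, 2.78% rose. Beside these shares, the few calls are not read as results about either list.

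**Figure D5:**
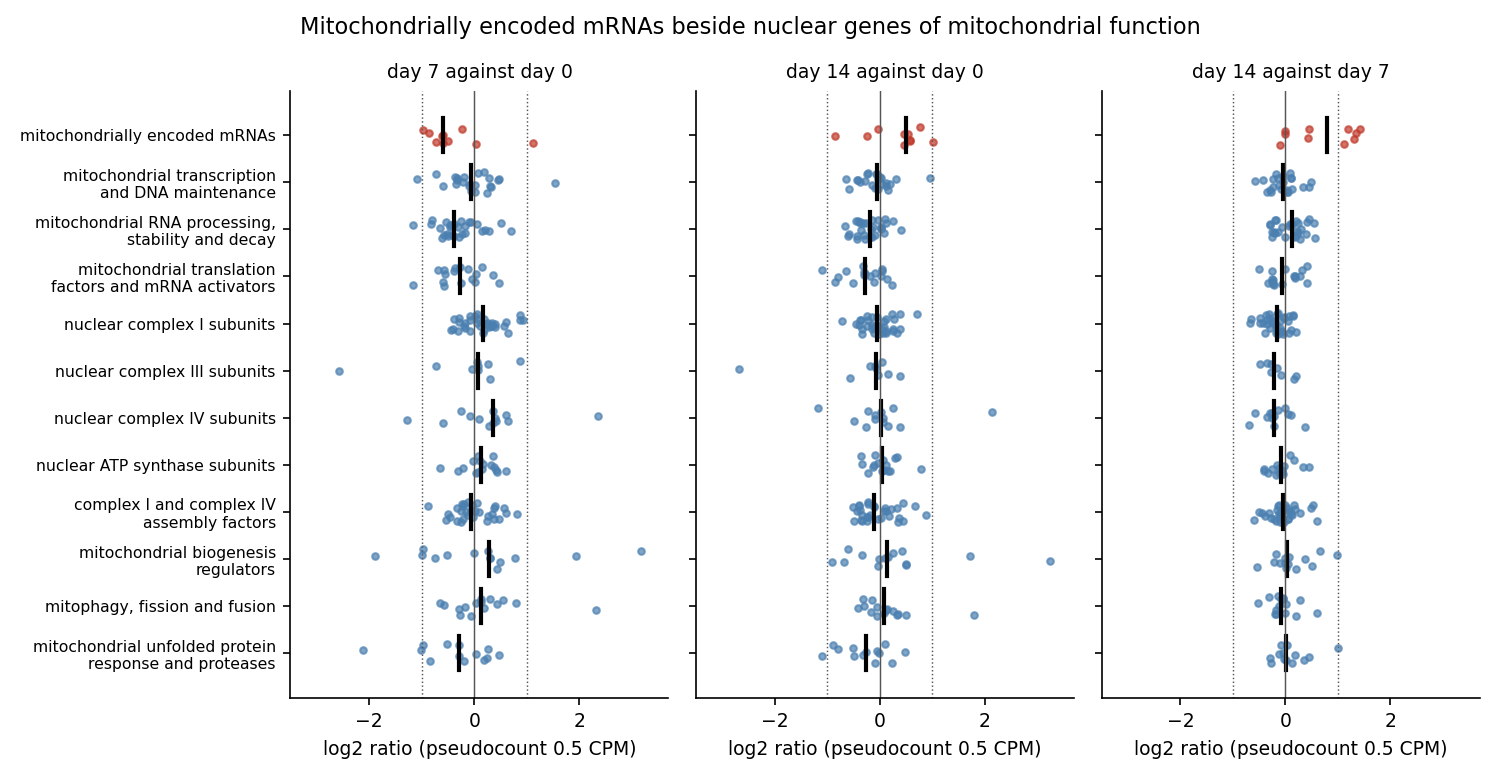
Log2 ratio with a pseudocount of 0.5 CPM (x axis) of each mitochondrial mRNA (red) and each measured gene of 11 nuclear lists (blue, 1 list per row), in the 3 comparisons; black bars are medians and dotted lines mark 2-fold. The mitochondrial mRNAs have medians of -0.59, 0.49 and 0.78, and the nuclear lists lie between -0.38 and 0.35.

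The make-up of the RNA also differed between libraries. Small structured and nuclear RNAs, which reach a library more or less readily with the way RNA is extracted and selected, made up 2.66%, 3.95% and 4.004% of all counts on day 0, 7 and 14. Malat1, a nuclear long non-coding RNA, rose to 18770 CPM on day 7, against 8855 CPM on day 0, and had 16101 CPM on day 14. Rn7sk, a small nuclear RNA, had 8594, 12723 and 16774 CPM. Rny1 rose to 207.9 CPM on day 14, against 12.5 CPM on day 7 and 15.18 CPM on day 0; Rny3 rose and Terc fell by day 14. Summed, these RNAs had similar shares on day 7 and day 14, but Rn7sk and Rny1 were higher on day 14 and Malat1 was lower. Their part in the levels of the mitochondrial mRNAs was not tested.

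The nearest nuclear genes lay farther from the median of the 9 heavy-strand mRNAs than from ND6. Among 2577 nuclear genes of at least 100 CPM on average, the nearest to the median of the 9 heavy-strand mRNAs, at log2 ratios of -0.59 on day 7 and 0.46 on day 14 against day 0, included Nudt4, S100a11, Marcks and Cd63, at distances of 0.285 to 0.340. That median was taken for each comparison on its own, with the uncertain COX2, COX3 and ATP6 included. Its day 7 value is that of ND2 and its day 14 value that of ATP6, so it is the pattern of no single mRNA. Of the 2577 genes, 7.84% stood below day 0 on day 7 and above it on day 14, as did 5 of the 10 mRNAs. A log2 ratio of 1 or more between day 14 and day 7 was reached by 2 of the 2577 genes and by the same 5 mRNAs. The genes nearest to ND6, at log2 ratios of 1.12 and 1.02, were Hacd3, Stk17b, Itm2b, Gsn and Aplp2, at distances of 0.0142 to 0.0381. Likeness here is the Euclidean distance over 2 log2 ratios from 3 libraries that share the day 0 library, and it is a description only.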

How the data were processed

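Per the labels, total RNA was isolated with TRIzol and sequenced from 1 library per time point. The tools named in the submitters' processing notes are DESeq, HTSeq, Cufflinks, TopHat and HISAT2, with mm10 as the build; the sources used here give neither their versions nor their roles. The authors deposited whole-number read counts per gene and FPKM values, with the gene lengths used for them. The FPKM of all 10 mRNAs equalled the count divided by length and library total within a relative tolerance of 0.001. The miRNA tables were not used here.

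Counts were scaled with TMM factors (edgeR 4.0.16, R 4.3.3). A gene passed the rule with at least 1 CPM in the higher library, a ratio of at least 2 without pseudocount and an exact 95% Clopper-Pearson interval excluding 1. Log2 ratios carry a pseudocount of 0.5 CPM, which understates changes of low genes. No replicated test was possible, and nothing says which spread separate cultures would show. Shares are of all counts, with Clopper-Pearson intervals. Nuclear copies were exact runs of 50 bases, or of 100 as an alternative, shared with GENCODE transcripts of the same build, not searched in the rest of the genome. Sequences came from those GENCODE transcripts. Named besides the 10 mRNAs were 11 regulators and, of each list, up to 3 genes past the rule by size and the 2 most abundant. A gene that the rule for similar patterns takes is not reported here. The 10 mRNAs and the lists were chosen with earlier results of these data known. The rule was tried on simulated counts that hold counting error alone. That trial cannot show how spread between cultures would affect the calls. The alternatives tried were total counts, DESeq2 1.42.0 size factors, factors without the mitochondrial chromosome, other minimum levels, pseudocounts and folds, and FPKM. Computation used scipy 1.17.1, pandas 2.3.3, numpy 2.4.6, Biopython 1.88 and matplotlib 3.10.9 under Python 3.11.15.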

Additional observations from a re-analysis of the deposited data

How the results depend on the processing

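With 1 library per group, intervals cover counting error only, and COX2, COX3 and ATP6 rest on at most 180 counts each. No paired analysis was possible because each time point has 1 library and the labels give no replicate numbers. For day 7 against day 0, 1 of the 10 mRNAs passed the rule; 2 did with total counts and with the authors' FPKM (ND5 and COX3, both lower, with ND6 missing the rule), 6 at a 1.5-fold threshold and 0 at a 4-fold threshold. For day 14 against day 0, 1 passed it, 3 did at 1.5-fold and 0 at 4-fold; total counts and FPKM also gave 1, but that was COX3, lower. For day 14 against day 7, 5 passed it and 0 did at 4-fold. The ND6 ratio was 1.95 on day 7 and 1.81 on day 14 against day 0 with total counts or FPKM, under the 2-fold threshold; at the 4-fold threshold the ratios of 2.17 and 2.02 missed it by construction. ATP6 changed sign for day 7 against day 0, from a log2 ratio of 0.03 to -0.12 with total counts or FPKM, as did COX3 for day 14 against day 7, at 0.00 either way, with DESeq2 size factors; their intervals included no change. Over the 11 nuclear lists and 3 comparisons, 25 calls became 85 at 1.5-fold and 9 at 4-fold.

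The share of the 10 mRNAs on day 0, 7 and 14 was 1.70%, 1.148% and 1.86% without the small structured and nuclear RNAs in the total. Malat1 was among those left out. The share was 3.404%, 2.52% and 3.84% of summed FPKM, and 1.67%, 1.11% and 1.804% with all genes of the chromosome. In alternatives chosen after seeing the data, the ratio of ND6 to ND1, ND2, ND4, ND5 and CYTB in place of all 9 others changed 3.44-fold (day 7 against day 0), 1.36-fold (day 14 against day 0) and 0.396-fold (day 14 against day 7); the values to CYTB alone were 1.40 and 0.431, and with summed FPKM 1.67 and 0.522, for the comparisons of day 14 with day 0 and with day 7. Over all genes, the calls for day 14 against day 7, 400 higher and 331 lower, were 66 and 25 where the fold was taken from the ratio with a pseudocount of 2 CPM, and 905 and 795 at 1.5-fold. The other 60 values recomputed for these results stayed on the same side of the threshold, within 1.5 times the count or within the counting interval; a count can stay the same with another mRNA behind it, as with COX3 for day 14 against day 0.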
